A study of Mus musculus with 7 samples.

Results

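The genes for receptors of neurotransmitters were examined for trimethylation of lysine 27 on histone H3 (H3K27me3) in epidermal progenitor cells of newborn mice, a cell type that forms the basal layer of the skin and is not neuronal. They were selected by gene symbol from the mouse RefSeq annotation (GRCm38.p6, the same build as mm10), taking the families Gria, Grik, Grin, Grm, Gabr, Glra, Chrn, Chrm, Htr, Drd, Adra and Adrb. This gave 96 of 21631 protein-coding genes on the autosomes and the X chromosome, in 9 transmitter classes. The peaks and the marked genes were in turn selected on the deposited peak positions: a gene is called marked here when a peak shares at least 1 bp with the 1 kb on either side of its first or last base. The counts and widths below are therefore descriptions and were not tested.

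Cells came from back skin at postnatal day 0 and were sorted as positive for EpCAM and Sca1 and high for alpha6-integrin. The comparison is between Control cells and Ring1a/b 2KO cells, which lack Ring1a and Ring1b, the ubiquitin ligases at the core of Polycomb repressive complex 1 (PRC1). The labels do not name a Cre driver, the strain or the number of animals per library. Each genotype had 2 labelled immunoprecipitation libraries but only 1 peak list, so no value has replicate error. The control list held 3631 peaks and the 2KO list 2340, with median widths of 4.76 and 5.51 kb. Lists give positions only, without height or depth, so a gene without a peak may still carry some of the mark. The titles of the 2KO libraries read H3K27me1, while their antibody label and the peak list read H3K27me3, and the list was taken as H3K27me3. None of 6 genes of basal epidermal cells (Krt5, Krt14, Trp63, Itga6, Itgb4 and Col17a1) was marked in either list. Over all protein-coding genes the shares marked were 10.1% in the control list and 6.63% in the 2KO list. With only 6 genes, having none marked is therefore no check of the cell type. The lists hold no measure of Ring1a or Ring1b themselves, so the genotype was not checked.

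Neurotransmitter receptors are of 2 kinds. Ligand-gated channels, assembled from several subunits, pass ions when glutamate, GABA, glycine, acetylcholine or, at 5-HT3 receptors, serotonin binds. G-protein-coupled receptors act through second messengers and serve glutamate, acetylcholine, serotonin, dopamine and the catecholamines adrenaline and noradrenaline. H3K27me3 is laid down by Polycomb repressive complex 2 and is typically found at CpG-rich promoters of genes that are silent in a given lineage. PRC1 is the complex that can bind this mark and ubiquitinates histone H2A.

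Promoter sequences are shown first, because most of the peaks described below lay over the start of the gene. The 250 bases upstream of the start site are printed 5′ to 3′ from the RefSeq promoter table (GRCm38.p6), with every CG dinucleotide in capitals. The first 6 belong to the gene with the widest control peak among glutamate, GABA-A, serotonin, dopamine, adrenergic and acetylcholine receptors. The last, Htr1a, was added after its values were seen, as the gene with the widest 2KO peak among those marked in the 2KO list alone.
Grik3 (chr4:125490446-125490695, plus strand): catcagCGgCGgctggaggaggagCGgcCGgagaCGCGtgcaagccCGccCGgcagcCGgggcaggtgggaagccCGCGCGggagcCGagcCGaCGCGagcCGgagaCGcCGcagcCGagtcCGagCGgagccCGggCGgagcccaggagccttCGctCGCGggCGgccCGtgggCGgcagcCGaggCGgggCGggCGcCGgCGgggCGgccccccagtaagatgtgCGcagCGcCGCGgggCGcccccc
Gabra2 (chr5:71095850-71096099, minus strand): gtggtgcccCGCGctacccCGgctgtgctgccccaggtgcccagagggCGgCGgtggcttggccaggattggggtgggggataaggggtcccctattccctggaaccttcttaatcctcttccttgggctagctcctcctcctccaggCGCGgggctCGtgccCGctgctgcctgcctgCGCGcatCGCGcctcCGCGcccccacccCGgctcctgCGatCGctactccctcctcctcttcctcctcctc
Htr7 (chr19:36057361-36057610, minus strand): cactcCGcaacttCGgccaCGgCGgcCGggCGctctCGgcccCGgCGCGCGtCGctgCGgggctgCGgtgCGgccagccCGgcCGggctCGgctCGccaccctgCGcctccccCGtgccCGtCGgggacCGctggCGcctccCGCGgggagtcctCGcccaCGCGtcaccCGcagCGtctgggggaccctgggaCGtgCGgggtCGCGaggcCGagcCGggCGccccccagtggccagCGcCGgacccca
Drd1 (chr13:54055659-54055908, minus strand): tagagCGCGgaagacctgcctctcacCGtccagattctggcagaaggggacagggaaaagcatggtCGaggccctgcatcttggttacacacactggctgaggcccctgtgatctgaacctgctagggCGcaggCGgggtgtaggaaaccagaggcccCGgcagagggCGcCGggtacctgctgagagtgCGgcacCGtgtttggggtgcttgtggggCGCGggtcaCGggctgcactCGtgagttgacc
Adra2a (chr19:54045009-54045258, plus strand): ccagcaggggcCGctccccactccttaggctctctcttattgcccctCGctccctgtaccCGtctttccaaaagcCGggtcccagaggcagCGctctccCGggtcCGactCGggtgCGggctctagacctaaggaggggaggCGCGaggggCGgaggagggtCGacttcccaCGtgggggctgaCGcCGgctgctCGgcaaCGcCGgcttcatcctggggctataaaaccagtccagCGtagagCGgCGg
Chrm3 (chr13:10360804-10361053, minus strand): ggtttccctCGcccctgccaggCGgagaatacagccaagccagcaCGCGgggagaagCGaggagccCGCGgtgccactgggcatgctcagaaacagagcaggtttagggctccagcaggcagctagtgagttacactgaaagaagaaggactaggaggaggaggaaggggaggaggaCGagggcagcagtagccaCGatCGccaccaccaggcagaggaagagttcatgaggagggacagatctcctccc
Htr1a (chr13:105443443-105443692, plus strand): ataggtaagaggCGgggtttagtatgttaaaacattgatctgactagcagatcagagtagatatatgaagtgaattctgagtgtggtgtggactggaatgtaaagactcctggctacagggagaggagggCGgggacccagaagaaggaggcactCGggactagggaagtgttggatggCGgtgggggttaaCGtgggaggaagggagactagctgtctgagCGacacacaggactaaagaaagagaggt
The printed stretches hold 42 CG dinucleotides for Grik3, 18 for Gabra2, 41 for Htr7, 15 for Drd1, 22 for Adra2a, 10 for Chrm3 and 6 for Htr1a. The start sites of Gabra2, Htr7, Drd1 and Adra2a lay under peaks of both lists. Those of Grik3 and Chrm3 lay under control peaks only, and that of Htr1a under a 2KO peak only.

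Receptor genes were marked equally often in both lists. Of the 96 genes, 41 were marked in control cells (42.7%, 95% Wilson interval 33.3 to 52.7), beside 10.1% of all protein-coding genes. In the 2KO list 41 were marked as well (42.7%), beside 6.63% of all protein-coding genes. The sets were not the same: 31 genes were marked in both lists, 10 in the control list only and 10 in the 2KO list only, which leaves 45 in neither. Among receptor genes with a control peak, 75.6% (60.7 to 86.2) had a 2KO peak too, beside 55.5% of all genes with a control peak. Of the 2KO-marked ones, 24.4% (13.8 to 39.3) were marked in that list only, beside 15.7% of all 2KO-marked genes. Intervals cover counting error only, and genes in clusters share peaks.

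The peaks themselves were of ordinary width. At control-marked receptor genes the widest peak had a median of 5.16 kb (quartiles 4.45 and 6.34), compared with 5.67 kb over all control-marked genes (3.66 and 9.14). In the 2KO list these medians were 6.06 and 6.57 kb. The 41 distinct control peaks covered 237 kb, of which 74.8% lay under 2KO peaks. The 41 distinct 2KO peaks covered 270 kb, of which 63.3% lay under control peaks. At the 31 genes marked in both lists, the widest 2KO peak was wider than the control peak at 20 and narrower at 11, with a median log2 ratio of 0.27 (quartiles -0.05 and 0.50). Over all 1210 genes marked in both lists it was 0.08 (-0.37 and 0.47). Grin2d, counted as narrower, has a control peak at each end, and its ratio sets the wider 3′ control peak (4.13 kb) against the 5′ 2KO peak (4.01 kb). Grik3, also counted as narrower, has a 21.0 kb control peak set against a 2KO peak of 11.8 kb. A further 2KO peak of 9.27 kb over that control peak lay outside the 1 kb windows and was not counted. Of the 32 distinct control peaks at these 31 receptor genes, 17 were covered by 2KO peaks to at least 99%. Called width depends on sequencing depth and on the peak caller's threshold, which are unknown for each list, and their part in these ratios was not tested.

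**Figure D1:**
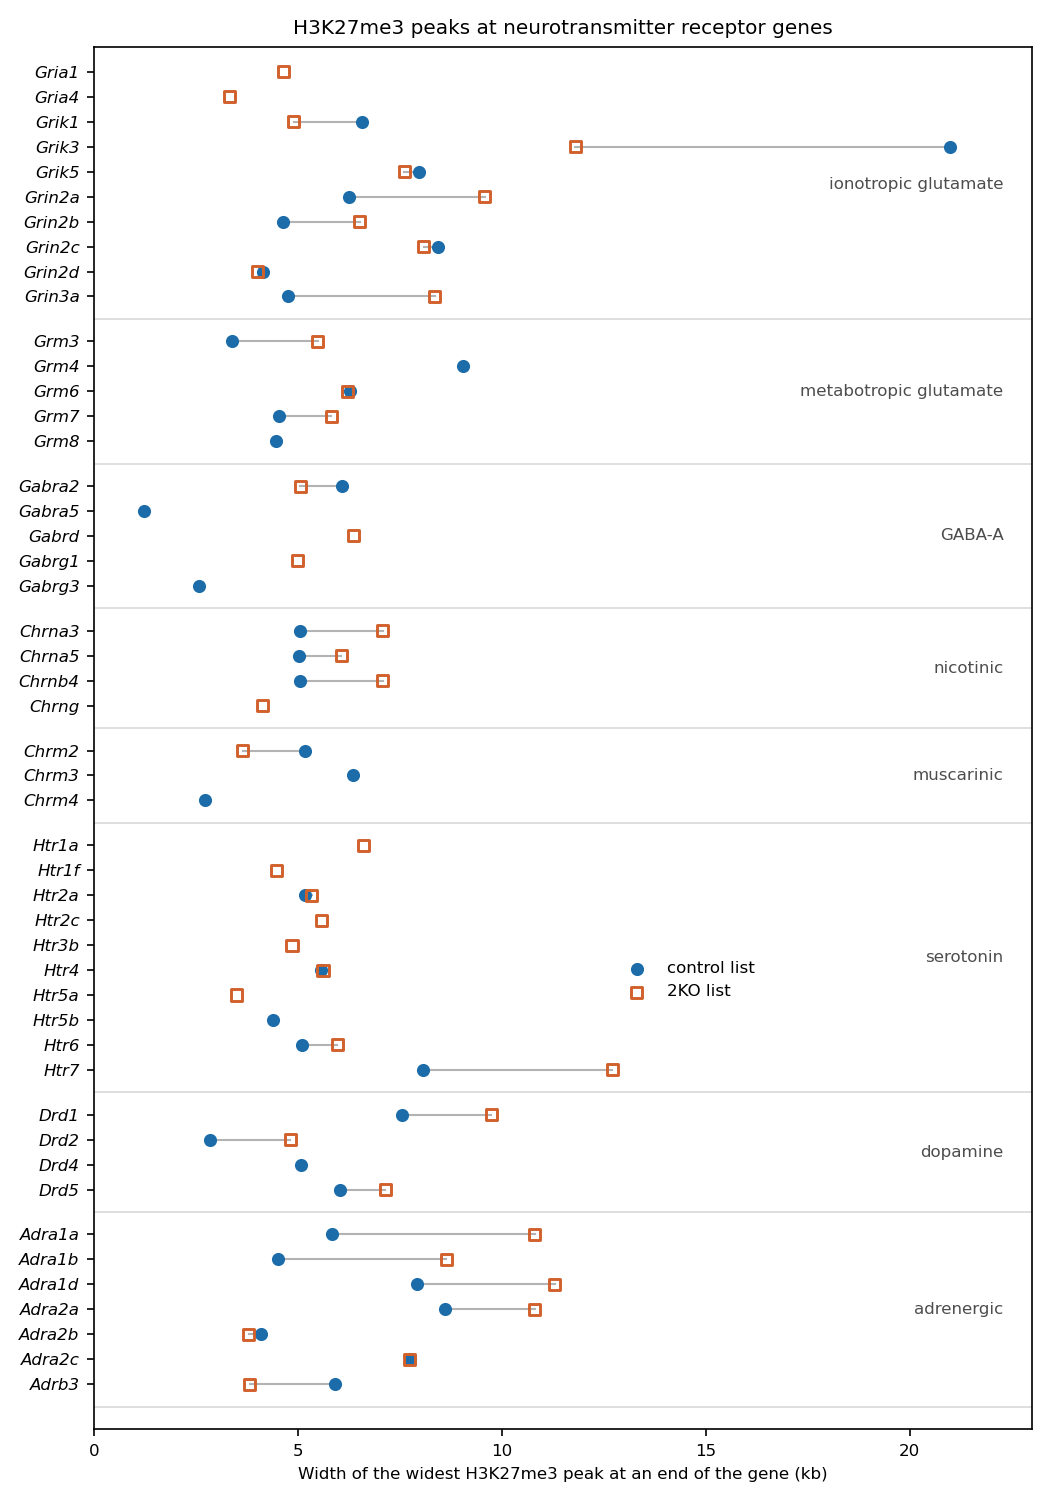
Width in kb of the widest H3K27me3 peak at an end of 48 receptor genes marked in at least 1 list, by transmitter class; filled circles are the control list, open squares the 2KO list, and a grey line joins the values of 1 gene. Of the genes shown, 30 have both symbols, and the square lies to the right of the circle at 19 of these; Grik3, at 21.0 kb, has the widest peak.

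The classes differed in how many of their genes were marked, although the small classes have wide intervals. In control cells the share was 80% of 5 dopamine, 77.8% of 9 adrenergic, 75% of 8 metabotropic glutamate, 60% of 5 muscarinic, 50% of 16 ionotropic glutamate and 35.7% of 14 serotonin receptor genes. It was 26.3% of 19 GABA-A, 18.8% of 16 nicotinic and 0% of 4 glycine receptor genes. Over all protein-coding genes it was 10.1%, which lies within the intervals of the nicotinic (6.59 to 43.0) and glycine (0 to 49.0) classes. The nicotinic share was 31.2% with a window of 5 kb and 7.14% of 14 without members whose peak reaches another gene, so its place beside the GABA-A and serotonin classes is not firm. The G-protein-coupled receptors were marked in 25 of 39 cases (64.1%, 48.4 to 77.3) and channel subunits in 16 of 57 (28.1%, 18.1 to 40.8). In the 2KO list the counts were 23 (59.0%, 43.4 to 72.9) and 18 (31.6%, 21.0 to 44.5), beside 6.63% of all protein-coding genes. Of the genes with a control peak, 76.0% (56.6 to 88.5) of the former kind and 75% (50.5 to 89.8) of the latter had a 2KO peak too. Over all genes with a control peak this share was 55.5%.

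**Figure D2:**
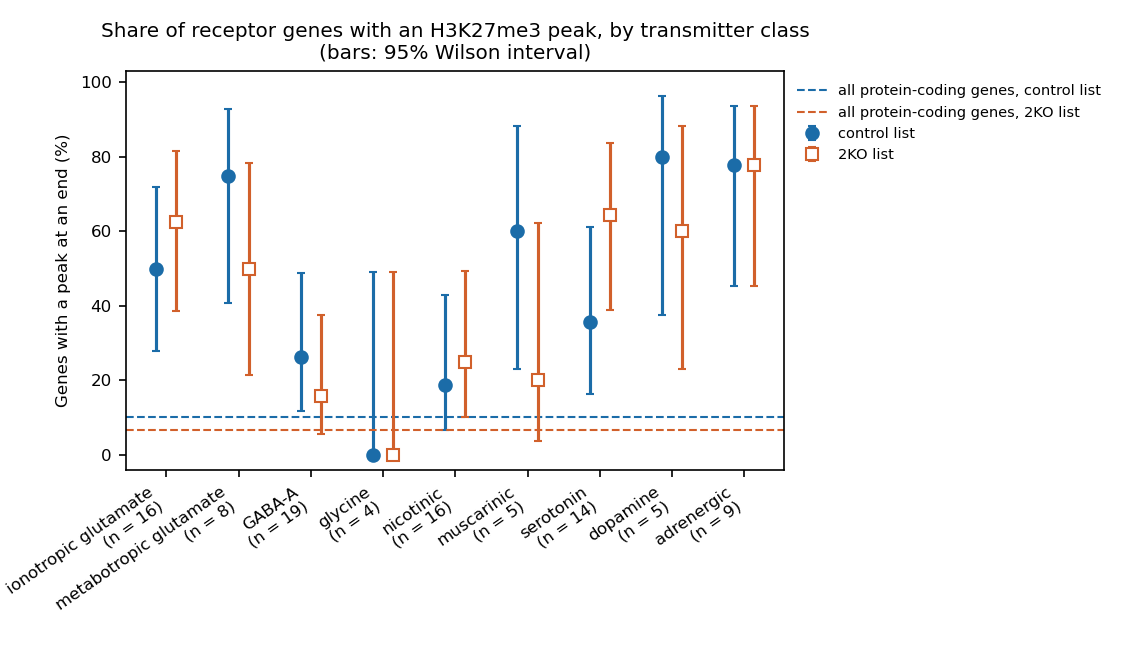
Percent of genes in each transmitter class with an H3K27me3 peak at an end, in the control list (filled circles) and the 2KO list (open squares), with 95% Wilson intervals; dashed lines give all protein-coding genes in the same list. Adrenergic genes are at 77.8% in both lists, serotonin genes at 35.7 and 64.3%, GABA-A genes at 26.3 and 15.8%, and glycine genes at 0%.

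Among adrenergic receptor genes, all 6 alpha receptor genes were marked in both lists. Adra1a, Adra1b and Adra1d encode the receptors that couple to Gq and contract smooth muscle. Adra1a had a 5.83 kb control peak and a 10.8 kb 2KO peak, and the former lay wholly under the latter. Adra1d had peaks of 7.92 and 11.3 kb. At Adra1b the marked end was the 3′ end, with peaks of 4.50 and 8.63 kb, but an annotated start site inside the gene (chromosome 11, 43836489) also lay under peaks of both lists. The ratios of 2KO to control width at Adra1b and Adra1a, 1.92 and 1.86, were the highest of the 31 genes marked in both lists; that at Adra1d was 1.43. Adra2a, Adra2b and Adra2c encode the Gi-coupled receptors that restrain noradrenaline release. Adra2a had a control peak of 8.60 kb (chromosome 19, 54042620 to 54051216) and a 2KO peak of 10.8 kb, Adra2c of 7.75 and 7.72 kb, and Adra2b of 4.10 and 3.79 kb. The peaks of Adra2a and Adra2c covered the whole gene in both lists. Of the beta receptors, which couple to Gs, Adrb3 of adipose tissue was marked in both lists (5.90 and 3.81 kb). Its control peak also reached an end of the neighbouring gene Got1l1. Adrb1, the main cardiac receptor, was marked in neither list.

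Dopamine receptor genes showed a comparable picture. The D1-like receptors, which stimulate adenylyl cyclase, are encoded by Drd1 and Drd5. Drd1 had a 7.55 kb control peak (chromosome 13, 54050307 to 54057855) within a 2KO peak of 9.74 kb (54048909 to 54058652). Drd5 had peaks of 6.03 and 7.14 kb. Each of these peaks covered the whole gene, with the control peak of Drd5 likewise wholly under the 2KO peak. Of the D2-like receptors, which inhibit adenylyl cyclase, Drd2 had peaks of 2.85 and 4.81 kb. Drd4 had a 5.08 kb control peak over 79.4% of the gene and no overlapping 2KO peak; the nearest 2KO peak lay 351526 bp from its ends. Drd3 was marked in neither list.

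The number of marked genes differed most between the lists for serotonin receptors. It was 5 in control (35.7%, 16.3 to 61.2) and 9 in 2KO cells (64.3%, 38.8 to 83.7). As a share of the class, muscarinic genes differed more, at 60% (23.1 to 88.2) in control and 20% (3.62 to 62.4) in 2KO cells. Over all protein-coding genes the shares were 10.1 and 6.63%. The intervals of both classes overlap between the lists, and the differences were not tested. GABA-A genes were shared less, with 1 marked in both lists, 4 in control cells only and 2 in 2KO cells only. The shared gene was 20% (3.62 to 62.4) of those with a control peak, an interval that holds the 55.5% of all genes with a control peak. Those in 2KO cells only were 66.7% (20.8 to 93.9) of 3 with a 2KO peak, beside 15.7% of all 2KO-marked genes. Of the serotonin receptor genes, 4 were marked in both. Htr7 and Htr6, which encode Gs-coupled receptors, had peaks of 8.07 and 12.7 kb and of 5.10 and 5.96 kb, each control peak lying wholly under the 2KO peak. Htr2a, the Gq-coupled receptor of cortex and platelets, had peaks of 5.16 and 5.34 kb. Htr4 had peaks of 5.57 and 5.61 kb shifted against each other, with 68.5% of the control peak under the 2KO peak. Htr5b alone was marked in control cells only (4.38 kb). The 5 genes marked in the 2KO list only were Htr1a, a Gi-coupled autoreceptor of serotonergic neurons (6.61 kb), Htr2c (5.57 kb), Htr3b, a subunit of the 5-HT3 channel (4.85 kb), Htr1f (4.47 kb) and Htr5a (3.50 kb). None of their peaks shared a base with a control peak. These 5 were 55.6% (26.7 to 81.1) of the 2KO-marked serotonin receptor genes, beside 15.7% of all 2KO-marked genes. The Htr1a peak (chromosome 13, 105442796 to 105449403) covered the whole gene, and the nearest control peak lay 386902 bp from it. Htr3b was the member nearest to the limit of the rule, since its peak began 825 bp inside the gene from the start. Just beyond the limit, a 2KO peak lay 1135 bp inside Grik2, which was not counted. Htr1b, Htr1d, Htr2b and Htr3a were marked in neither list.

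Ionotropic glutamate receptors were divided by family. Of the NMDA receptor genes, whose products are calcium-permeable coincidence detectors of synaptic plasticity, 5 of 7 were marked and the same 5 in both lists. Grin2a had a control peak of 6.26 kb (chromosome 16, 9991049 to 9997312) inside a 2KO peak of 9.58 kb (9989848 to 9999424). Grin2b had peaks of 4.64 and 6.51 kb and Grin3a of 4.75 and 8.35 kb, again with the control peak wholly under the 2KO peak. Grin2c carried a peak at each end in both lists, of 8.43 and 4.64 kb in the control list and of 8.08 and 4.86 kb in the 2KO list. The wider ones also reached an end of Fdxr. Grin2d had a control peak of 3.34 kb at its 5′ end inside a 2KO peak of 4.01 kb, and a control peak of 4.13 kb at its 3′ end with no 2KO counterpart. These also reached Kdelr1 and Grwd1, respectively. The annotated start site of Grin2d (chromosome 7, 45866681) lay inside the gene and under no peak of either list. Grin1, the obligatory subunit, was not marked at its ends, but its body held a control peak of 9.97 kb and a 2KO peak of 12.0 kb, over 35.6 and 42.8% of the gene. Grin3b was marked in neither list.

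Kainate receptor genes were marked in 3 of 5 cases in both lists, and at each the widest peak counted was narrower in the 2KO list. Grik3 had the widest control peak of all receptor genes, 21.0 kb (chromosome 4, 125478264 to 125499263). In the 2KO list it was met by separate peaks of 11.8 kb (125478262 to 125490088) and 9.27 kb (125491278 to 125500543), which together covered 94.3% of it. The gap between them held the start of the gene, including the start site whose upstream sequence is printed above. Grik1 had peaks of 6.56 and 4.89 kb. The Grik5 peaks of 7.97 and 7.60 kb lay at its 3′ end and also reached an end of another gene, while the annotated start site of Grik5 had no peak. Inside Grik2 lay a control peak of 2.48 kb and a 2KO peak of 8.56 kb, the latter over an annotated start site. Grik4 was marked in neither list. AMPA receptor genes, which carry most fast excitatory transmission, had no control peak in any of 4. Gria1 (4.63 kb) and Gria4 (3.32 kb) were marked in the 2KO list only, without overlap with a control peak, and Gria2 and Gria3 in neither.

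The metabotropic glutamate receptors were marked in 6 of 8 control and 4 of 8 2KO cases. Grm3, a Gi-coupled presynaptic and glial receptor, had peaks of 3.37 and 5.48 kb, and Grm7 of 4.52 and 5.81 kb. At both the control peak lay wholly under the 2KO peak. Grm6, the receptor of ON bipolar cells in the retina, had almost the same peak in both lists (chromosome 11, 50847019 to 50853300 and 50847072 to 50853282, 6.28 and 6.21 kb). Grm4 (9.05 kb) and Grm8 (4.45 kb) had control peaks without a base of any 2KO peak. Grm5 had a 5.32 kb control peak inside the gene, 1338 bp from an end, and no 2KO peak. Grm2 was marked in neither list.

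Acetylcholine receptor genes split between a nicotinic gene cluster and single genes. The cluster of Chrna5, Chrna3 and Chrnb4 (chromosome 9, 54980827 to 55048953) encodes subunits of the receptor of autonomic ganglia. Over the start of Chrna3, within 1 kb of the end of Chrnb4, a 5.05 kb control peak (55022401 to 55027455) lay wholly inside a 7.07 kb 2KO peak (55021778 to 55028847), so a single peak of each list marked both genes. At Chrna5 the lists were offset: a 5.01 kb control peak lay over the start and a 6.06 kb 2KO peak ended 636 bp upstream of it, so that 18.2% of the former was covered. Chrng, the subunit of fetal muscle, was marked in the 2KO list only (4.12 kb). Chrna4, a main nicotinic subunit of brain, had a 6.11 kb control peak over an annotated start site inside the gene, 1225 bp from its nearest end, and no 2KO peak. The other 11 nicotinic genes, among them Chrna7 and Chrna9, had no peak in either list at their ends or inside. Of the muscarinic receptors, Chrm2 of the heart had peaks of 5.18 and 3.64 kb. Chrm3 of glands and smooth muscle (6.34 kb) and Chrm4 (2.71 kb) had control peaks that no 2KO peak overlapped. Chrm1 and Chrm5 were marked in neither list.

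GABA-A receptor subunit genes had few and narrow control peaks, with a median of 2.56 kb over 5 genes. The 1.22 kb peak of Gabra5 also marked a further GABA-A gene, so it enters this median more than once. Gabra2 alone was marked in both lists (6.08 and 5.05 kb). It lies in a cluster on chromosome 5 (70751047 to 72149572) with Gabrg1, which was marked in the 2KO list only (4.98 kb), and with Gabra4, which had no peak. Gabrb1, in the same cluster, had an internal start site under peaks of both lists, 5.57 kb wide in the control and 10.1 kb in the 2KO list. Over this cluster 11.6 kb lay under control and 20.2 kb under 2KO peaks. Gabra5 and Gabrg3, on chromosome 7, had control peaks at their ends and no 2KO peak there. That of Gabra5 was 1.22 kb wide and lay upstream of the gene, and that of Gabrg3 was 2.56 kb wide and lay over its start. A start site inside Gabra5 (57510059) was nevertheless under peaks of both lists. Gabra6 and Gabrb2, on chromosome 11, had no peak. Gabrd, whose product sits outside synapses, was marked in the 2KO list only (6.37 kb). The share of GABA-A genes marked in control cells rested on narrow peaks: it went from 26.3 to 10.5% with peaks of at least 3 kb. Gabre, Gabra3 and Gabrq on the X chromosome, the rho genes Gabrr1, Gabrr2 and Gabrr3, Gabrp, and the glycine receptor genes Glra1, Glra2, Glra3 and Glra4 had no peak.

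Where the strand was known, most peaks lay over the 5′ end. The RefSeq promoter table gave a strand for 70 of the 96 genes. Of 28 control-marked genes among them, 24 had the 5′ end itself under a control peak, and of 30 2KO-marked genes 23 had it under a 2KO peak. Peaks reached to both sides of the start. At Htr7 the control peak ran from 2.68 kb upstream to 5.39 kb downstream and the 2KO peak from 5.45 kb upstream to 7.21 kb downstream. At Htr2a these limits were 1.77 and 3.39 kb in control and 1.93 and 3.41 kb in 2KO cells. For compact genes this meant the whole gene, as at Drd1, Drd5, Adra2a and Adra2c in both lists and Htr1a in the 2KO list.

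**Figure D3:**
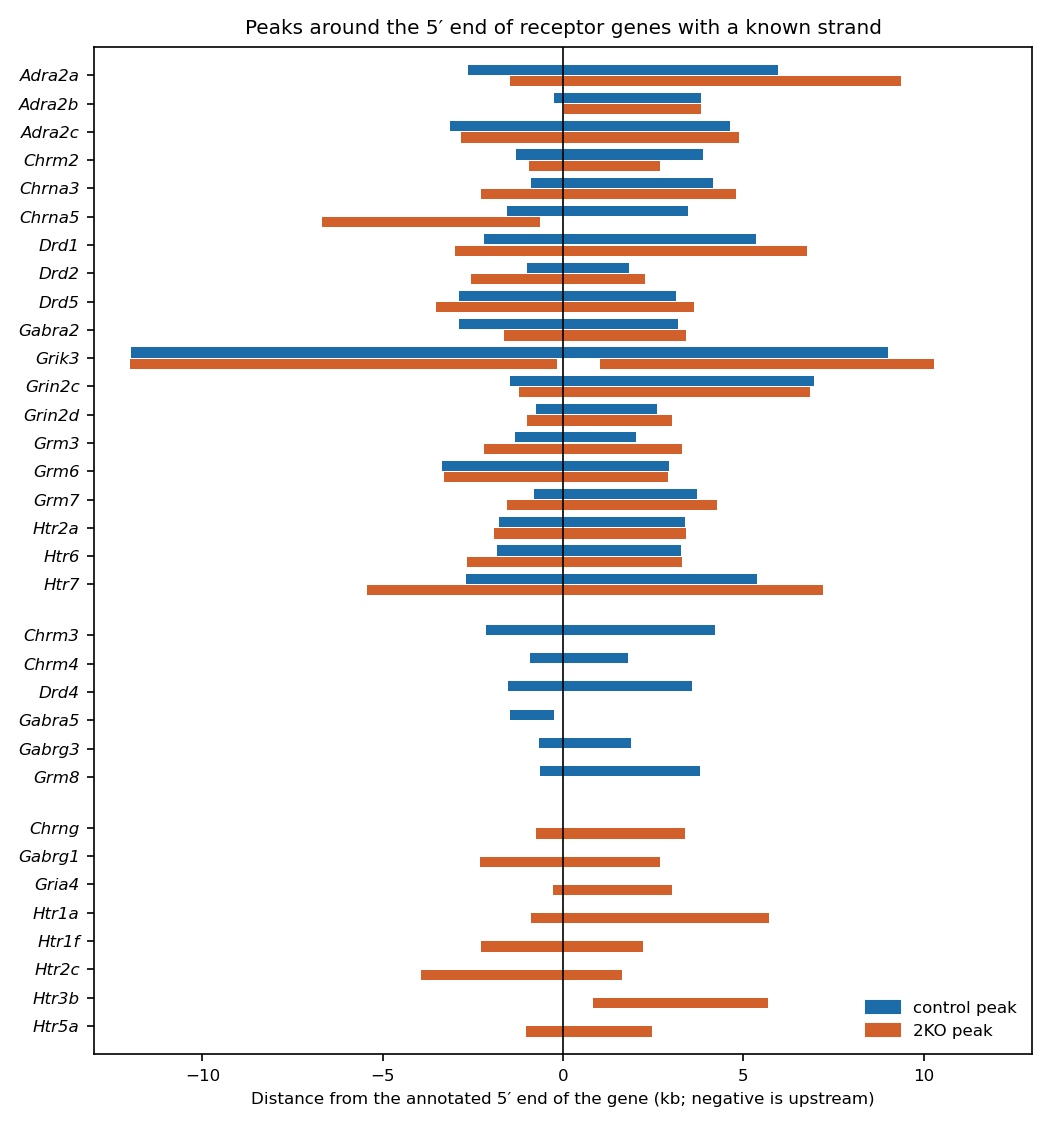
Peaks around the annotated 5′ end of 33 receptor genes with a known strand, in kb, with negative values upstream; blue bars are control and orange bars 2KO peaks, for genes marked in both lists (top), in the control list only (middle) and in the 2KO list only (bottom). The 3 genes with peaks at the 3′ end only are not shown. Most bars span 0; at Grik3 the gap between the 2KO peaks holds the 5′ end, and at Chrna5 the 2KO peak ends upstream of it.

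Promoter sequence was not used in choosing the genes and was compared over 82 annotated promoters of 70 receptor genes (300 bases, from 250 before to 50 after the start). The ratio of observed to expected CG dinucleotides, which is low in most of the genome and high in CpG islands, had a median of 0.590 (quartiles 0.443 and 0.775) at the 40 promoters whose start site lay under a peak of either list. It was 0.419 (0.175 and 0.673) at the 42 others. Over all promoters of protein-coding genes the medians were 0.653 (n = 1684) and 0.559 (n = 19361). Receptor promoters under control peaks only had the highest median, 0.807 (n = 11), those under peaks of both lists 0.586 (n = 21) and those under 2KO peaks only 0.490 (n = 8). The same order held over all promoters, with 0.717, 0.619 and 0.437. The ranges overlapped, from 0.397 to 1.01, 0.218 to 1.02 and 0.0758 to 0.836. High CG content was also found without a peak at the start, as at Grin1 (1.20), Grik4 (1.16), Chrna7 (1.01) and Adrb1 (0.766). Conversely, Grm6 (0.218) and Adra2c (0.363) lay under peaks of both lists. The 6-letter motif GGGCGG, searched on both strands and itself containing a CG, was present in 25 of the 40 promoters under a peak (62.5%). It was present in 17 of the 42 others (40.5%). The split over all promoters was similar, with 59.1% of those under a peak, 45.6% of the others and 46.7% in total. TATAAA, searched on both strands, was present in 1 of 40 (Adra2a) and 6 of 42, compared with 12.7% of all promoters. Genes with several annotated starts count more than once, and promoters are not replicates, so no test was made.

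**Figure D4:**
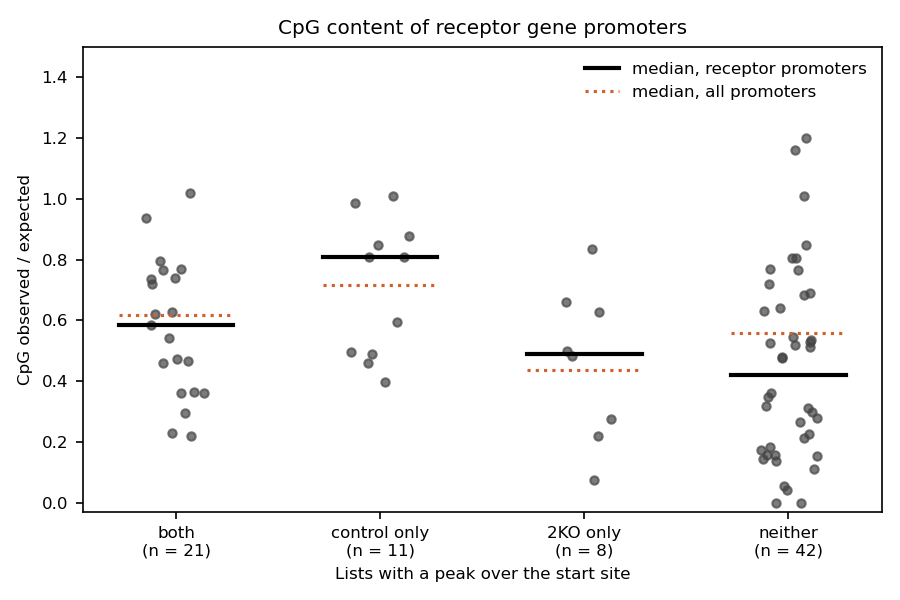
Ratio of observed to expected CG dinucleotides in 82 receptor gene promoters, grouped by which lists have a peak over the start site; each point is 1 promoter (spread sideways at random), black lines are medians of receptor promoters and dotted lines those of all promoters in the same group. The medians are 0.586 (both), 0.807 (control only), 0.490 (2KO only) and 0.419 (neither), and the ranges overlap.

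Other genes of synaptic transmission were taken from lists of related genes. Of 38 genes for transmitter synthesis and transport, the control list marked 15 (39.5%, 25.6 to 55.3), beside 10.1% of all protein-coding genes. The 2KO list marked 12 (31.6%), beside 6.63% of all protein-coding genes. The 11 shared were 73.3% (48.0 to 89.1) of those with a control peak, beside 55.5% of all genes with a control peak. The median of the widest control peaks at the 15 genes was 9.63 kb. Slc32a1, the vesicular transporter of GABA and glycine, had peaks of 22.5 and 30.2 kb. Gad1 and Gad2, which encode the enzymes that make GABA, had peaks of 15.8 and 11.1 kb and of 14.7 and 16 kb. Slc6a5, the neuronal glycine transporter, had peaks of 13.5 and 15.7 kb. None of the 4 glycine receptor genes of the set was marked, a class too small to tell from all protein-coding genes. Slc17a7, a vesicular glutamate transporter, had widest peaks of 13.3 and 19.4 kb. Chat and Slc18a3, which share a locus and serve acetylcholine synthesis and storage, shared peaks of 10.0 and 14 kb.

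Among 41 genes for auxiliary and scaffold proteins of receptors, the control list marked 22 (53.7%, 38.7 to 67.9), beside 10.1% of all protein-coding genes. The 2KO list marked 10 (24.4%), all of them among the 22, beside 6.63% of all protein-coding genes. The widest were at Cacng8, an auxiliary subunit of AMPA receptors, with a 19.1 kb control peak covered to 44.9%, and Shisa9, with 13.3 kb and no 2KO base. Shisa6 had peaks of 11.8 and 11.3 kb and Shank1, a scaffold gene, of 9.71 and 7.92 kb. Cnih3 (8.77 kb) had no 2KO peak, and the 8.37 kb control peak of Grip2 was covered to 39.9%. The shared genes were 45.5% (26.9 to 65.3) of those with a control peak, an interval that holds the 55.5% of all genes with a control peak. For the receptor genes this share was 75.6% (60.7 to 86.2). The intervals of these gene sets overlap, and the difference was not tested.

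A further 27 receptor genes were taken from the glutamate delta, GABA-B, glycine beta, histamine, purine, adenosine, opioid, cannabinoid and trace amine families. The control list marked 9 (33.3%, 18.6 to 52.2) of these 27, beside 10.1% of all protein-coding genes. The 2KO list marked 5 (18.5%, 8.18 to 36.7), beside 6.63%. The 4 shared were 44.4% (18.9 to 73.3) of those with a control peak. This interval holds the 55.5% of all genes with a control peak and overlaps that of the receptor genes (75.6%, 60.7 to 86.2). Grid1 had peaks of 9.13 and 8.90 kb and Hrh3 of 5.54 and 6.22 kb. Gabbr2 (7.32 kb), Hrh1 (4.78 kb) and Adora1 (4.60 kb) had control peaks and no 2KO peak. For voltage-gated and other potassium channel genes, chosen by symbols of Kcn, further letters and a number, the control list marked 44 of 92 and the 2KO list 27, with 25 shared. For sodium, calcium and HCN channel genes these counts were 13 of 32, 10 and 7. The control shares of these channel sets were 47.8 and 40.6%, beside 10.1% of all protein-coding genes. Their 2KO shares were 29.3 and 31.2%, beside 6.63%. The shared channel genes were 56.8% (42.2 to 70.3) and 53.8% (29.1 to 76.8) of those with a control peak. Both lay near the 55.5% of all genes with a control peak. Their intervals also overlap that of the receptor genes (75.6%, 60.7 to 86.2), and the differences were not tested.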

How the data were processed

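H3K27me3 ChIP-seq was performed on sorted epidermal progenitor cells, with 2 labelled libraries each of control and Ring1a/b 2KO cells. The submitters' processing notes name Bowtie2 2.3.3.1, SAMtools 1.9 and the build mm10. Per the file headers, the lists deposited by the authors hold chromosome, start and end of each peak, with no score, count or depth. Which peak caller and threshold were used, and whether input was subtracted or libraries were pooled, is not given in the sources used here. Input and Eed cKO libraries were not analysed here. The files' 0-based starts are given here as 1-based positions. Genes and promoters came from RefSeq tables of GRCm38.p6. Python 3.11.15 (numpy 2.4.6, pandas 2.3.3, scipy 1.17.1, matplotlib 3.10.9) served for overlaps, widths, 95% Wilson intervals and plots. Where a gene had several peaks in a list, its widest was used. The overlap code was tested on simulated data. The receptor genes marked in either list are named, and up to 6 genes of each related list at the widest peaks, plus Slc18a3, which shares its peak with Chat. A few genes are counted in the totals but not reported here by name. The members and lists were chosen with earlier results of these data known. Alternatives covered the window, the gene part, peak width, the number of peaks and the overlap required; leaving out members whose peaks reach another gene, and counting control peaks met by any 2KO peak, were added after the data were seen.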

Additional observations from a re-analysis of the deposited data

How the results depend on the processing

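No paired analysis was possible because a genotype's numbered libraries share a single peak list, which also means that none of them could be left out in turn. Of 124 recomputed values 117 stayed within 1.5 times the count (or share of bases), or within the counting interval of a share of genes, and 7 moved. Of the 124, 72 were shares of single classes, and 3 of these moved. The intervals of small classes are so wide that few changes could leave them. The muscarinic control share, for example, counted as staying when it went from 60 to 40% (interval 23.1 to 88.2). The number that stayed therefore says little about the class shares. With start sites only, which covers the 70 genes of the promoter table, the control list marked 27 genes, 6 of them without a 2KO peak, and the control share of ionotropic glutamate genes was 20% of 10. When the larger control list was cut to its widest peaks, equal in number to the 2KO list, the genes with a control peak alone numbered 5. With peaks of 3 kb or wider they numbered 6. The control share of GABA-A genes was 5.26 and 10.5% under these settings, and the 2KO list lost no receptor gene under either. Fewer control peaks entered under the equal-number and 3 kb settings. The start-site setting changed both the genes entered and the part of the gene: among the 70 genes it lost Grik5, Grin2d and Chrnb4 from the control list and gained Chrna4 and Gabrb1. The share of receptor genes with a control peak that had a 2KO peak too (75.6%) lay between 68.4%, with a window of 0 bp, and 85.3%, with equal numbers of peaks. The 55.5% of all genes with a control peak was not recomputed under these settings, so whether the difference from it held is not known. The number marked in the 2KO list only, 10, lay between 9 and 12. A window of 0 bp lost Adra2b, Grik3, Adrb3, Htr3b and Chrna5 from the 2KO list, and Gabra5 and Chrnb4 were among those lost from the control list. Without the 8 members whose peaks reach another gene, the control list marked 33 and the 2KO list 35 genes, with 25 shared. The depth behind the lists is unknown, so how small an enrichment they could have missed cannot be stated.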
